A study of Mus musculus with 10 samples.

Results

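Thyroid hormone reaches its nuclear receptors through a chain of proteins. Genes of that chain, with Trhde from outside it, were followed as a set of 8 in the RPE (retinal pigment epithelium), which lies behind the photoreceptors. They encode transporters of the hormone (Slco1c1 and Slc16a10), the enzymes that activate or inactivate it (Dio2 and Dio3), a protein that binds it inside cells (Crym), its receptors (Thra and Thrb) and an enzyme that breaks down thyrotropin-releasing hormone (Trhde). All 8 were found among the 47729 genes of the count table, and all 8 had enough counts to be tested, as did 16362 genes in all. Slco1c1 and Trhde were chosen by their measured values, since they were among the genes with the lowest fold change in Nrf2 over control eyes, so their values in that contrast are given as a description with no test. The other 6 were listed for their function.

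RNA was sequenced from 10 libraries, 1 from each eye of 5 mice of the wild-type CD1 stock at postnatal day 40. In each mouse 1 eye had received a GFP vector (control eye), and the other eye the same GFP vector with a further vector carrying human Nrf2 (Nrf2 eye). Both were adeno-associated viruses with the human Best1 promoter, which is active in the RPE, and per the methods they had different capsids. Nrf2 eyes thus received an additional vector, and no eye received an equal amount of an inert one. Nrf2 activates antioxidant genes by binding to their DNA. After the retina was taken out, the cleaned eyecup was placed in an RNA-protecting reagent, and RNA was purified from the supernatant. The paper calls it RPE RNA, and it was amplified before library preparation.

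As background, thyroid hormone is secreted mostly as thyroxine (T4), which deiodinase 2 converts to the active T3, while deiodinase 3 inactivates both forms. The hormone crosses membranes through carriers such as OATP1C1 and MCT10. Its secretion is driven by thyrotropin-releasing hormone (TRH) from the hypothalamus and thyrotropin (TSH) from the pituitary. In the eye the hormone is known for its part in the patterning of cone opsins.

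Library totals ran from 12298404 to 27310638 counts. A limit of 3 counts was taken as a rough upper bound for a count of 0, not a strict maximum. It corresponds to between 0.110 and 0.244 CPM (counts scaled to the library total). Copies made by amplification are not separate molecules, so this limit is one of counting alone. Nfe2l2, the mouse gene of Nrf2, had 79.3 to 110 CPM in control eyes and 267 to 414 CPM in Nrf2 eyes, and reads of the human transgene may be counted there. Of all genes tested, 1036 (6.33%) had an adjusted p under 0.05, with 2.73% lower and 3.6% higher in Nrf2 eyes, and the median log2 fold change was -0.01. RNA of rods was most abundant in both eyes of mouse 2, at 20766 and 8126 CPM summed over 11 rod markers, against 158 to 3228 CPM in the other control eyes. RPE marker RNA was present in every library. The marker Best1, whose human promoter was used in the vectors, had at most 1.503 CPM.

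Slco1c1 and Trhde had the lowest fold changes of the 8 genes, with means of 12.8 and 12.7 CPM in Nrf2 eyes against 88.0 and 84.8 CPM in control eyes, while none of the 6 genes listed by function had an adjusted p under 0.05. At an unadjusted p under 0.05 there were 2 of those 6, Crym and Thra, and DESeq2 called 1 of them, Crym. Over the whole table the share of genes called in either direction was 6.33% with edgeR, 19.1% at an unadjusted p under 0.05 and 8.92% with DESeq2.

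**Figure D1:**
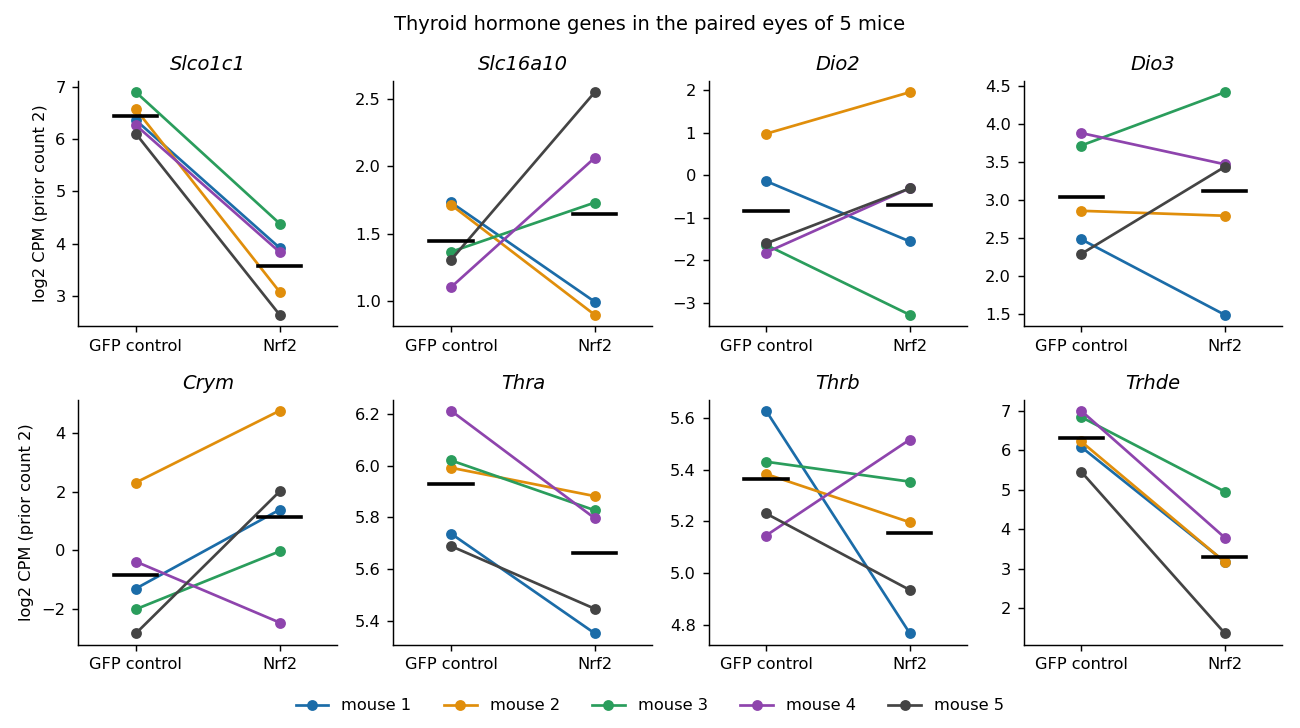
Level of each of the 8 genes in the control and Nrf2 eye of the same mouse, as log2 CPM with a prior count of 2 (vertical axis, a separate scale in each panel). Each line joins the eyes of 1 mouse and black bars are means of 5 eyes. All 5 lines slope down for Slco1c1, Trhde and Thra, while lines cross in both directions for Slc16a10, Dio2 and Dio3.

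Slco1c1 (ENSMUSG00000030235, chromosome 6, 141524368 to 141570177, plus strand, GRCm38) encodes OATP1C1, a high-affinity carrier of T4 known from the vessels of the brain. Its level in the control eyes of mice 1 to 5 was 83.7, 98.0, 115, 76.6 and 67.0 CPM. In the Nrf2 eyes of the same mice it was 14.4, 8.62, 19.7, 14.7 and 6.31 CPM. The highest Nrf2 eye thus lay far under the lowest control eye, and the lowest level of both groups was in mouse 5. The means were 88.0 ± 18.8 CPM (SD, n = 5) and 12.8 ± 5.32 CPM (SD, n = 5), with a fitted log2 fold change of -2.87 (SE 0.25). This was the 7th lowest value of the 16362 genes tested. Within a mouse, the Nrf2 eye held 17.3%, 8.80%, 17.1%, 19.2% and 9.42% of the CPM of the control eye in mice 1 to 5. Mice 2 and 5 therefore retained the least, and the other 3 mice had closely similar shares. Without mouse 2, whose eyes held the most rod RNA, the log2 fold change was -2.67, and with the rod markers as a covariate it was -2.94.

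Trhde (ENSMUSG00000050663, chromosome 10, 114398823 to 114802307, minus strand) encodes the TRH-degrading ectoenzyme, a membrane peptidase of the M1 family that cuts TRH outside cells. Control eyes of mice 1 to 5 had 68.6, 76.3, 110, 127 and 42.6 CPM. Nrf2 eyes had 8.56, 9.19, 29.1, 14.1 and 2.55 CPM. The groups did not overlap here either, although the highest Nrf2 eye, that of mouse 3, came closer to the lowest control eye, that of mouse 5. The means were 84.8 ± 33.5 CPM and 12.7 ± 10.05 CPM (SD, n = 5 each), for a log2 fold change of -3.02 (SE 0.35), the 5th lowest of all genes tested. The Nrf2 eye held 12.5%, 12.04%, 26.5%, 11.2% and 5.99% of the control eye's CPM. Mouse 3 retained the most and mouse 5 the least. Over all tested genes, 2.41% had every Nrf2 eye below every control eye, as these 2 genes had by the way they were chosen.

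The far 5′ end of Trhde shares sequence with an antisense gene. Gm15723 (ENSMUSG00000084865, chromosome 10, 114801726 to 114816831) runs on the other strand with exons that overlap those of Trhde. It had 3.32 ± 2.10 CPM in control eyes and 0.598 ± 0.381 CPM in Nrf2 eyes (SD, n = 5 each), and its log2 fold change was -2.16 (adjusted p = 0.0205). The strand setting of the counting was not given in the sources used here, so reads from the overlap cannot be assigned to either gene. No annotated gene overlaps Slco1c1.

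Slc16a10 (ENSMUSG00000019838, chromosome 10, 40033532 to 40142258, minus strand) encodes MCT10, a carrier of aromatic amino acids and of T3. It was scarce in every library, with 3.26, 3.27, 2.37, 2.03 and 2.31 CPM in control eyes. Nrf2 eyes had 1.82, 1.83, 3.05, 4.23 and 5.95 CPM. The Nrf2 eyes both under- and overshot the control range, with a lower level in mice 1 and 2 and a higher one in mice 3 to 5. The log2 fold change was 0.21 (adjusted p = 0.860, SE 0.42), and without mouse 5 it was -0.06.

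Dio2 (ENSMUSG00000007682, chromosome 12, 90724552 to 90738438, minus strand), the gene of the activating deiodinase, was close to the limit of 3 counts in several libraries. Its control eyes had 0.816, 1.91, 0.209, 0.179 and 0.220 CPM. Its Nrf2 eyes had 0.228, 3.90, 0, 0.732 and 0.728 CPM, where the rough limit for the count of 0 in mouse 3 is 0.113 CPM. Both eyes of mouse 2 stood above all other libraries, and that mouse also had the most rod and inner retina neuron RNA. Their part in the Dio2 level was not tested. The log2 fold change of 0.26 (adjusted p = 0.893, SE 0.69) turned to -0.03 without mouse 4 or without mouse 5, and to -0.22 with rod markers as a covariate.

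Dio3 (ENSMUSG00000075707, chromosome 12, 110279068 to 110281097, plus strand), the gene of the inactivating deiodinase, was the more abundant deiodinase per length of exon. Control eyes had 5.56, 7.33, 12.5, 14.5 and 4.65 CPM. Nrf2 eyes had 2.60, 7.08, 20.2, 11.4 and 11.1 CPM. The groups overlapped, and mice 3 and 4 were highest in both. The Nrf2 eye was lower in 3 mice and higher in 2. The log2 fold change was 0.09 (adjusted p = 0.937, SE 0.38), with -0.02 without mouse 3 and -0.18 without mouse 5.

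Crym (ENSMUSG00000030905, chromosome 7, 120186380 to 120202111, minus strand) encodes mu-crystallin, an NADPH-dependent protein that binds T3 in the cytosol. Its control eyes had 0.306, 4.99, 0.140, 0.657 and 0.0366 CPM, so that 4 of the 5 lay under 1 CPM. Its Nrf2 eyes had 2.41, 28.1, 0.827, 0.0813 and 4.07 CPM. The level was higher in the Nrf2 eye of 4 mice and lower in mouse 4, and the eyes of mouse 2 again stood highest in each group. The log2 fold change was 2.20 (SE 1.13) and did not pass the test (adjusted p = 0.211). It passed with DESeq2, at 2.57 (adjusted p = 0.0191), and in edgeR without mouse 4, at 3.00 (adjusted p = 0.0499), and without mouse 5 it was 1.55 (adjusted p = 0.351). Without mouse 2 it was 2.11 (adjusted p = 0.510), and with rod markers as a covariate 3.18 (adjusted p = 0.0538). Inner retina neuron markers summed to 567 and 660 CPM in the control and Nrf2 eye of mouse 2, and their part in the Crym level was not tested.

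Thra (ENSMUSG00000058756, chromosome 11, 98740638 to 98769006, plus strand) encodes thyroid hormone receptor alpha, which is broadly expressed. Control eyes had 54.0, 65.2, 62.1, 73.5 and 50.1 CPM, and Nrf2 eyes 39.2, 61.1, 53.7, 57.6 and 45.05 CPM. The difference was small but of 1 sign, lower in the Nrf2 eye of 5 of 5 mice, as 10.9% of all tested genes were (9.23% were higher in 5 of 5), while the ranges of the groups overlapped. The log2 fold change was -0.27 (SE 0.06) and did not pass the test over all genes (adjusted p = 0.146). Exons of Thra overlap those of Nr1d1, the gene of the clock repressor REV-ERB alpha, on the other strand. Nr1d1 had 81.8 ± 39.3 and 63.7 ± 44.0 CPM (SD, n = 5 each) and a log2 fold change of -0.50 (adjusted p = 0.183), and reads of the overlap cannot be told apart without strand.

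Thrb (ENSMUSG00000021779, chromosome 14, 17660261 to 18038090, plus strand) encodes receptor beta, whose beta 2 isoform is known for its part in cone opsin choice. Control eyes had 50.04, 42.8, 41.3, 35.0 and 36.4 CPM, and Nrf2 eyes 26.1, 37.9, 38.6, 47.4 and 31.6 CPM. The Nrf2 eyes were lower in 4 mice and higher in mouse 4. The log2 fold change was -0.21 (adjusted p = 0.607, SE 0.20), and without mouse 1, which had the largest difference, it was -0.01.

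**Figure D2:**
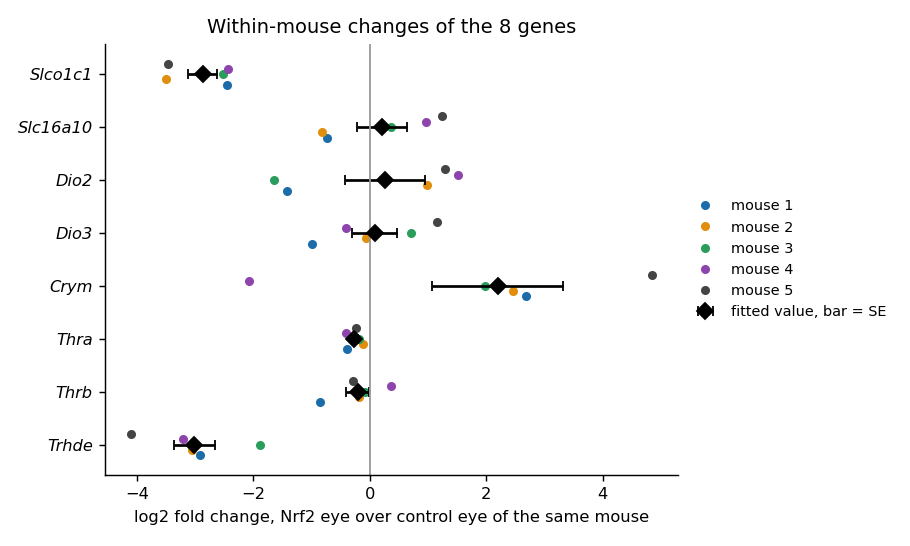
Log2 fold change of the Nrf2 eye over the control eye for the 8 genes (horizontal axis). Coloured points are single mice, black diamonds the fitted values over 5 mice and bars the SE of the within-mouse differences. Slco1c1 (-2.87) and Trhde (-3.02) lie left of 0 in all 5 mice, the points of Crym spread most widely, and those of Thra lie closest together.

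The levels of the 8 genes were set side by side per length, as CPM per kilobase of merged exon. In control eyes the order of the mean levels was Slco1c1 at 16.98, Thra at 13.2, Trhde at 10.5, Thrb at 5.55, Dio3 at 4.39, Crym at 0.362, Slc16a10 at 0.360 and Dio2 at 0.115. Slco1c1 had thus the highest mean of the 8 genes in control eyes, above Thra in 4 of 5 eyes. Of the 7 neighbouring pairs in this order, the ranges over 5 eyes were separate only for Dio3 and Crym. In Nrf2 eyes the order was Thra at 11.1, Dio3 at 5.15, Thrb at 4.91, Slco1c1 at 2.46, Crym at 2.09, Trhde at 1.58, Slc16a10 at 0.459 and Dio2 at 0.192. All 7 neighbouring pairs overlapped there. With the length of the longest transcript instead, Slc16a10 stood above Crym in control eyes and Thrb above Dio3 in Nrf2 eyes, and the range of Thra was separate from that of its neighbour in Nrf2 eyes. An exact two-sided permutation test that flips the signs of the differences within 5 eyes cannot go below p = 0.0625, so no neighbours could be separated by it. The position of Crym rests on the eyes of mouse 2, with 1.47 and 8.27 CPM per kilobase.

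**Figure D3:**
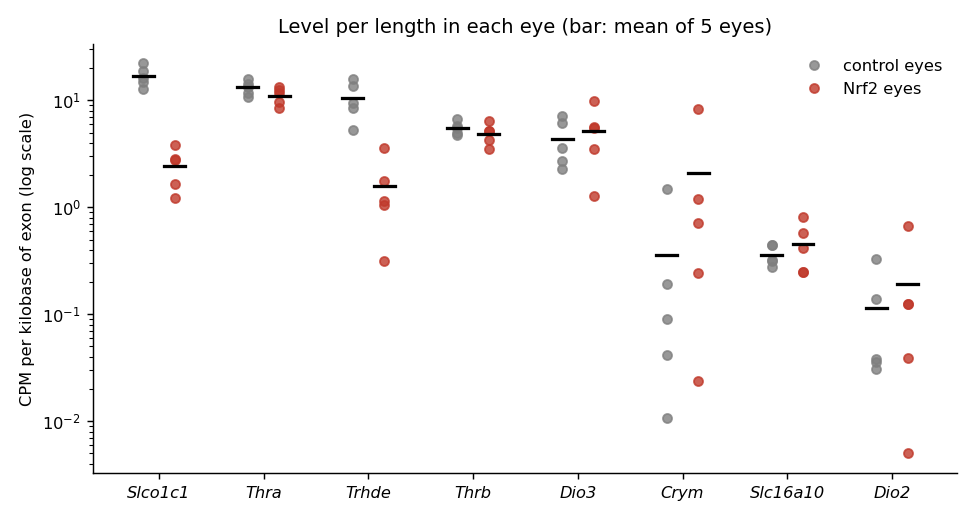
CPM per kilobase of merged exon of the 8 genes in each eye (log axis), grey for 5 control eyes and red for 5 Nrf2 eyes, with bars for means. The Nrf2 eye of mouse 3 with no Dio2 count is drawn at the bottom of the scale. Slco1c1 and Trhde lie near the receptor genes Thra and Thrb or above them in control eyes and have means of 2.46 and 1.58 in Nrf2 eyes.

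The start regions of Slco1c1 and of its neighbour Slco1a4, the nearest tested gene on its higher-coordinate side, are shown because both genes had less RNA in Nrf2 eyes and their windows share a stretch of letters. They are the 250 bases before the RefSeq start (GRCm38.p6), at chr6:141524104-141524353 on the plus strand for Slco1c1 and chr6:141856221-141856470 on the minus strand for Slco1a4. Capitals mark the longest run the windows share.
Slco1c1: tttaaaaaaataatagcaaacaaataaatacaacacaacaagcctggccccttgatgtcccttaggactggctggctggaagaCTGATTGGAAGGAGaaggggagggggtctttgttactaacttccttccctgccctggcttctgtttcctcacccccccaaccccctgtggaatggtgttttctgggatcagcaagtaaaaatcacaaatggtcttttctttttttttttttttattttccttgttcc
Slco1a4: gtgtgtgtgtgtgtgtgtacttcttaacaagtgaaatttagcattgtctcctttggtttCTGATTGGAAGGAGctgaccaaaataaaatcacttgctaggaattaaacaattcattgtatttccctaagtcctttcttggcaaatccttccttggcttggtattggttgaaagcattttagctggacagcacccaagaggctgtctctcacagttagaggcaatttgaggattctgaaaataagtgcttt
The shared run has 14 bases and begins at position -167 of Slco1c1 and -191 of Slco1a4, counted from the start. It occurred in 2 of 32851 windows, which are these. Because it was defined as the longest run they share, its presence in both was fixed by that choice. The count therefore cannot show whether such sharing is unusual. How long a run other pairs of windows share was not tested. The run was found by comparing the windows after the values were seen, and it is a description of letters, not a site.

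The region before the RefSeq start of Trhde is shown as that of the other chosen gene, with capitals for the E-box letters found in it (chr10:114802303-114802552, minus strand). This start lies 938 bases upstream of the start of the coding transcript Trhde-201 and next to that of a retained-intron transcript, so the window need not be the promoter of the coding RNA.
Trhde: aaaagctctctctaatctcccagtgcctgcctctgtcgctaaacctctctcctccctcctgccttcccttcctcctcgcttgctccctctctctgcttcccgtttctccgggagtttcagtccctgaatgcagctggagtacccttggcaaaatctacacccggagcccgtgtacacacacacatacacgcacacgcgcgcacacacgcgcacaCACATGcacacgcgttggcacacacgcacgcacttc

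Windows from 250 bases before to 50 bases after the start were matched for 6 of the 8 genes, with Thra and Crym as the exceptions, and 4 motifs were searched on both strands. These were the core of the antioxidant response element, TGACNNNGC, to which Nrf2 binds with a small Maf protein, the thyroid hormone response half-site AGGTCA, the OTX2 core TAATCC, and the MITF E-box CATGTG. The half-site read on its other strand begins with TGAC and can overlap the first motif. They occurred in 12.4%, 16.3%, 7.06% and 14.2% of all 32851 windows of this length. The Slco1c1 window held none of the 4, and neither did those of Slc16a10, Dio2 and Dio3. The Trhde window held the E-box at position -36, on the strand opposite to the gene. Of the 2 Thrb windows, 1 held the antioxidant core as TGACGCGGC at position -56, a half-site at -184 and, on the opposite strand, the OTX2 core at -46.

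Of a list of 15 other thyroid hormone transporters, 10 were tested and 3 had an adjusted p under 0.05, 1 higher and 2 lower, against 6.33% of all genes. Both that fell belong, like Slco1c1, to the SLCO1 family of carriers. Slco1a4, a carrier of bile acids, steroids and thyroid hormone, had 354, 247, 270, 288 and 217 CPM in control eyes and 126, 78.4, 200, 92.9 and 86.1 CPM in Nrf2 eyes. No Nrf2 eye reached the lowest control eye, as in 2.41% of all genes. The log2 fold change was -1.33 (adjusted p = 0.00917, SE 0.23, and adjusted p = 0.0534 with the rod covariate). Slco1a5 fell from 28.2 ± 10.002 to 11.01 ± 4.63 CPM (SD, n = 5 each; log2 fold change -1.37, adjusted p = 0.00377, SE 0.17), lower in 5 of 5 mice with overlapping ranges. Without the mouse as a block its adjusted p was 0.0511. On chromosome 6, Slco1a4 lies 235263 bases and Slco1a5 664050 bases from Slco1c1, and reads of these similar genes may be shared in part. Slco2b1, which is also known as a gene of microglia, rose from 1.71 ± 0.655 to 11.5 ± 7.90 CPM without overlap, as 3.87% of all genes did (log2 fold change 2.49, adjusted p = 0.0334, SE 0.63). Its call was lost without mouse 1, 2, 3 or 4 (adjusted p 0.0597 to 0.101) and with the rod covariate (adjusted p = 0.110). Microglia and macrophage markers passed the test as higher in Nrf2 eyes in 10 of 11 cases, beside 3.6% of all genes. They summed to 294 to 378 CPM in control and 489 to 1943 CPM in Nrf2 eyes, and their part in the Slco2b1 value was not tested.

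Slc3a2, the heavy chain of amino acid carriers that also take up the hormone, had 386 ± 72.3 and 517 ± 58.5 CPM (log2 fold change 0.42, adjusted p = 0.120). DESeq2 called it and Slco4c1 besides the 3 above, 5 of 11 tested beside 8.92% of all genes, and both had an unadjusted p under 0.05 in edgeR, as 19.1% of all genes had. The median log2 fold change of the 10 genes was 0.03, beside -0.01 for all genes. In the wider SLC16 family, to which Slc16a10 belongs, 11 of 13 other genes were tested and 4 were called, where 6.33% of all genes were. Slc16a1, the lactate carrier MCT1, fell by 1.45 in log2 units (adjusted p = 0.00427, SE 0.19). Slc16a6 fell by 1.44 (adjusted p = 0.00253, SE 0.17) and Slc16a8, the lactate carrier MCT3 of the RPE, by 1.18 (adjusted p = 0.0163, SE 0.23). The call of Slc16a8 was lost without mouse 2 (adjusted p = 0.0659), without mouse 5 (0.0507) and without the mouse as a block (0.0580). Slc16a6 shares its locus with Arsg and Amz2 on the other strand, whose log2 fold changes were -1.24 and 0.25. Slc16a4 rose by 1.19 (adjusted p = 0.0109, SE 0.21).

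Among 13 other carriers and enzymes of the hormone, 9 were tested and 2 were called, where 6.33% of all genes were. The count was 0 with rod markers as a covariate and also without mouse 2, 3 or 4. Ugt1a6a, a glucuronyl transferase that conjugates small phenols, rose from 20.9 ± 9.37 to 46.5 ± 7.44 CPM (log2 fold change 1.21, adjusted p = 0.0199, SE 0.26), and it shares exons with the other genes of its cluster, such as Ugt1a6b at 1.53. Sult1a1, a phenol sulfotransferase, had 23.5 ± 8.65 and 16.2 ± 6.61 CPM (log2 fold change -0.58, adjusted p = 0.0438), and its adjusted p without the mouse as a block was 0.513. It overlaps Sgf29 on the other strand, whose log2 fold change was 0.05. Ttr, the T4-binding transport protein of blood, made in quantity by the RPE, had 6761 to 19035 CPM in control and 7491 to 20337 CPM in Nrf2 eyes (log2 fold change 0.00, adjusted p = 0.998, SE 0.31). Dio1, the third deiodinase, had at most 20 counts in a library. Serpina7, the thyroxine-binding globulin, had no count.

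All 15 partners of the receptors were tested, and 1 was called, a share near the 6.33% of all genes. Ncoa1, the coactivator SRC1, had 174, 144, 147, 174 and 117 CPM in control eyes and 81.6, 90.2, 111, 103 and 84.9 CPM in Nrf2 eyes. Each Nrf2 eye lay under all control eyes, as in 2.41% of all genes, with a log2 fold change of -0.69 (adjusted p = 0.0129, SE 0.11). The adjusted p was 0.0586 without mouse 2, 0.0540 without mouse 4 and 0.0662 with the rod covariate. Of the retinoid X receptors with which Thra and Thrb pair, Rxra, Rxrb and Rxrg had log2 fold changes of 0.18, -0.12 and 0.33, and the corepressor gene Ncor1 of -0.04, none past the test. The median of the list was 0.05.

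Of 13 genes of TRH and TSH signalling, 7 were tested and 2 were called, where 6.33% of all genes were. DESeq2 called 4 of 9 tested (8.92% of all genes), with Cpe and Pam besides these. Tshr, the TSH receptor, had 346, 262, 436, 425 and 245 CPM in control eyes and 151, 91.2, 267, 126 and 96.4 CPM in Nrf2 eyes. The fall was seen in 5 of 5 mice although the Nrf2 eye of mouse 3 exceeded 2 control eyes (log2 fold change -1.32, adjusted p = 0.00536, SE 0.19; 0.0647 without the mouse as a block). Qpct, whose enzyme forms the pyroglutamate end that TRH carries and that the Trhde enzyme removes, rose from 7.05 ± 7.96 to 19.6 ± 11.6 CPM (log2 fold change 1.79, adjusted p = 0.0325, SE 0.44; 0.281 without the block, and 0.0741, 0.0842 and 0.0895 without mouse 1, 3 and 5). Trh itself had at most 2 counts in a library and its receptor gene Trhr at most 20, while Trhr2 had none. The soluble TRH-cutting enzymes Pgpep1 and Prep had log2 fold changes of -0.06 (adjusted p = 0.821) and 0.13 (adjusted p = 0.764). Cpe, a carboxypeptidase of prohormone processing, had 720 ± 182 and 473 ± 129 CPM (log2 fold change -0.63, adjusted p = 0.0614). Of the 10 other M1 aminopeptidases, the family of Trhde, 9 were tested and edgeR called 0, beside 6.33% of all genes. There was 1 (Rnpepl1, -0.35) at an unadjusted p under 0.05, beside 19.1%, and 0 by DESeq2, beside 8.92%. At such shares few calls would fall on 9 genes, so the 0 says little about them.

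Of 11 genes known to respond to thyroid hormone, 7 were tested and edgeR called 0, with 0 at an unadjusted p under 0.05 and 0 by DESeq2. At the 6.33% of all genes fewer than 1 call would fall on 7 genes, so the 0 says little about them. Klf9, a direct target of the receptors, had 55.9 ± 16.5 and 48.3 ± 13.6 CPM (log2 fold change -0.23, adjusted p = 0.446, SE 0.15). Hr and Thrsp had log2 fold changes of -0.18 and -0.19. Me1, the malic enzyme, had a log2 fold change of 0.26 (adjusted p = 0.340, SE 0.13). The median of the list was 0.11.

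**Figure D4:**
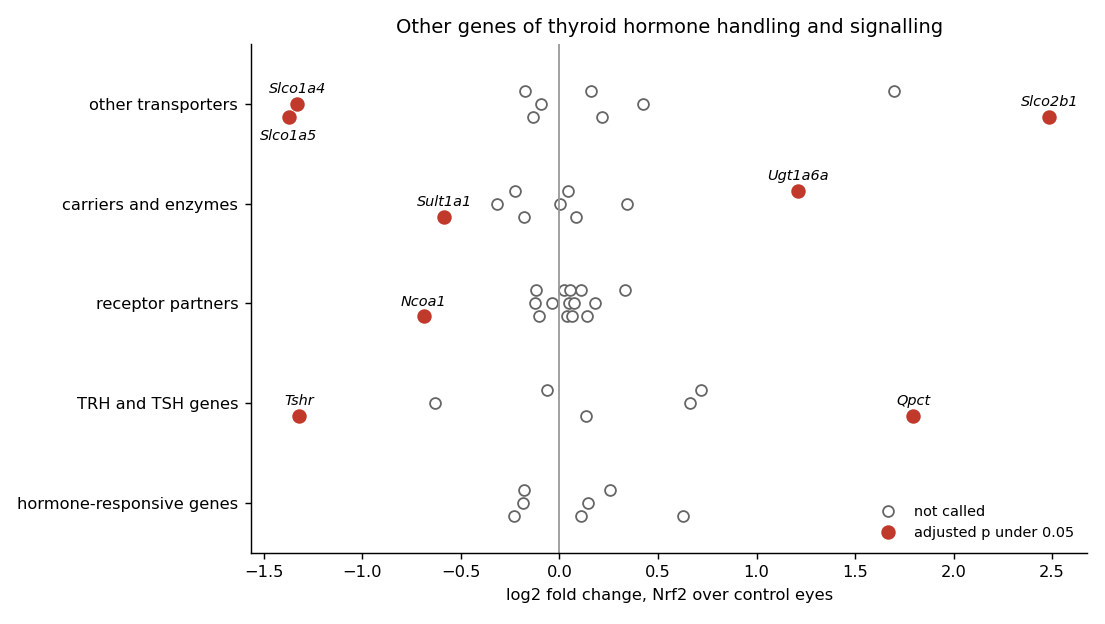
Log2 fold change in Nrf2 over control eyes (horizontal axis) of the tested genes of 5 lists, 1 row for each list. Filled red points have an adjusted p under 0.05 and are named, open points do not. The 8 called genes are Slco1a4, Slco1a5, Sult1a1, Ncoa1 and Tshr left of 0, and Slco2b1, Ugt1a6a and Qpct right of it.

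Part of the RPE marker list was lower in Nrf2 eyes, as the 2 chosen genes were. Of 16 RPE markers, 12 had a log2 fold change below 0, and the median was -0.73. In Nrf2 eyes 9 were called lower and 0 higher, beside 2.73% and 3.6% of all genes. The RPE markers summed to 24572 to 51511 CPM in control and 12706 to 33117 CPM in Nrf2 eyes. Rpe65, the retinoid isomerase of the visual cycle, was lower by about as much as Slco1c1, at 3492 ± 779 and 547 ± 334 CPM (log2 fold change -2.88, SE 0.30). Other RPE markers did not move in this way, such as Mitf at -0.26 (adjusted p = 0.317), Tyrp1 at 0.24 (adjusted p = 0.821) and Ttr at 0.00. In bulk RNA, fewer cells of a type and less RNA per cell cannot be told apart. Endothelium, where Slco1c1 is known from the brain, had 0 of 12 markers called by edgeR, 0 at an unadjusted p under 0.05 and 0 by DESeq2. The shares of all genes were 6.33%, 19.1% and 8.92%. Endothelium markers summed to 44.96 to 176 CPM in control and 81.3 to 165 CPM in Nrf2 eyes, ranges that overlap. Beside the same shares of all genes, pericyte markers had 1 of 9 called by edgeR (Kcnj8, -2.54). They had 2 at an unadjusted p under 0.05 and 2 by DESeq2 (with Cspg4, -1.36). Their sums were 240 to 1152 CPM in control and 235 to 852 CPM in Nrf2 eyes. The part of these cells in the levels of Slco1c1 and Trhde was not tested.

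**Figure D5:**
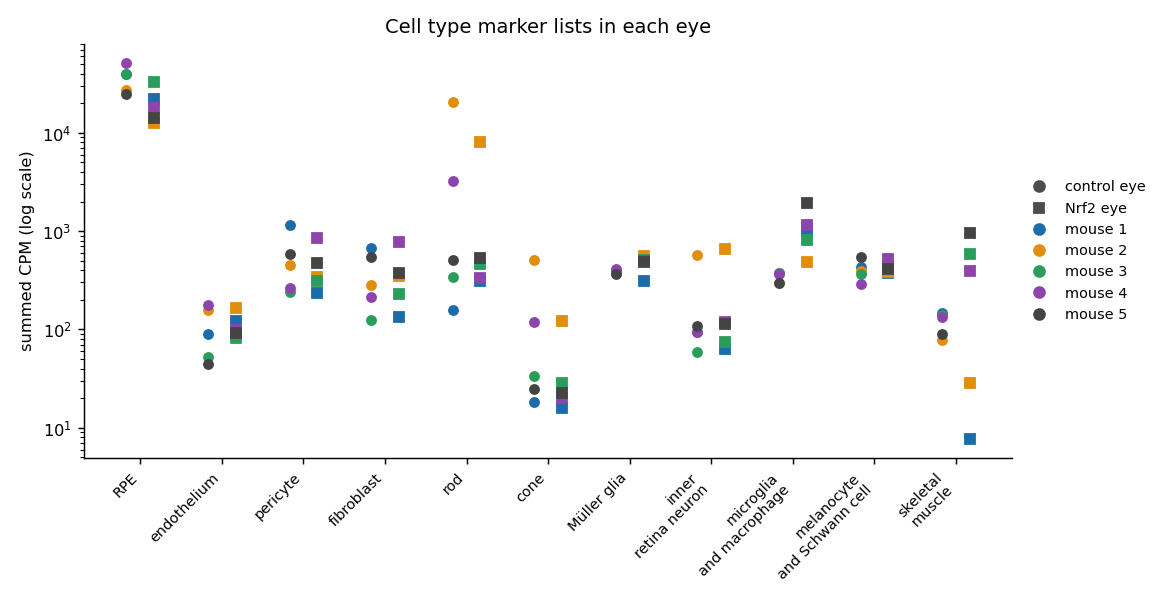
Summed CPM of 11 cell type marker lists in each eye (log axis), circles for control and squares for Nrf2 eyes, coloured by mouse. Rod and inner retina neuron RNA is highest in both eyes of mouse 2, microglia and macrophage RNA is above every control eye in all Nrf2 eyes (489 to 1943 CPM), and endothelium RNA overlaps between the groups.

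Genes whose log2 CPM followed that of Slco1c1 most closely over the 10 libraries were Exoc3, Enpp2, Rhobtb2, Gpam and Ttc9c, with Pearson's r of 0.983, 0.979, 0.978, 0.977 and 0.974. For Trhde they were Psd3, Rhobtb2, Kcna2, Jakmip2 and Smpd2, with r of 0.983, 0.981, 0.981, 0.977 and 0.977. The 10 libraries share the difference between the groups and come from the same mice, which such values include. In all, 149 of 16361 genes had r above 0.9 with Slco1c1, and 185 with Trhde. Rhobtb2 was on both lists, with a log2 fold change of -1.90 (SE 0.10). Enpp2, the gene of the lysophospholipase autotaxin, had 3452 CPM in control and 717 CPM in Nrf2 eyes. The similarity was one of pattern and not of size, since Exoc3 led the first list with a log2 fold change of -0.27 (SE 0.02). Slco1c1 and Trhde had r = 0.951 with each other, and r = 0.969 and 0.922 with Rpe65.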

How the data were processed

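RNA was measured in 10 mouse libraries, 5 control and 5 Nrf2 eyes. The authors aligned reads with STAR to mm10 with Ensembl transcripts and counted genes with featureCounts, and in parallel estimated counts with Salmon (0.8.2 per the labels). The deposited table holds whole-number raw counts per Ensembl gene. Which of the 2 count tables it is, and the strand setting, were not given in the sources used here. Reads of overlapping or similar genes may be assigned uncertainly.

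Symbols and positions came from GENCODE M21 (GRCm38), which matched 47310 identifiers (99.1%), and sequences from RefSeq (GRCm38.p6). The test was that of edgeR 4.0.16, run in R 4.3.3 (filterByExpr, TMM, quasi-likelihood F test, mouse as a block, Benjamini-Hochberg adjustment over 16362 genes, threshold 0.05), and this test gives every adjusted p unless DESeq2 (1.42.0) is named. Log2 fold changes are fitted values with a prior count of 2. Levels per length use merged exons, with the longest transcript as an alternative. The SE comes from the 5 differences between the eyes of a mouse in log2 CPM (their SD over the square root of 5). Scripts were tested on simulated data.

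Eyes were paired by the animal number in the labels. Deviations from the group means correlated between eyes of a mouse with r of 0.19 to 0.71, against -0.42 to 0.28 (median -0.08) between eyes of different mice, ranges that overlap. No library copied another, with a chi-square of at least 34.5 per degree of freedom for each pair. Sequencing took 2 runs per the labels, which could not be assigned to libraries.

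The members and lists were chosen with earlier results of these data known. Genes named were all members, each called gene of the pathway and family lists, the gene of highest mean CPM in each pathway list, the 5 genes most like Slco1c1 and Trhde, and genes that overlap a member. Rpe65, Mitf, Tyrp1, Kcnj8, Cspg4, Rnpepl1, Ugt1a6b, Arsg, Amz2, Pam, Slco4c1, and list members named for their role were chosen after their values were seen. Overlapping genes with at most 9 counts in a library, or with no row in the table, are not described. Values of 2 genes of the lists are not reported here.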

Additional observations from a re-analysis of the deposited data

Results flagged for a closer look

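No value of the 8 genes was flagged. Dixon's criterion for a distant library was applied to 38 groups of 5 eyes, of which chance alone would flag about 1.9. On the log2 scale 5 marker sums stood out. In Nrf2 eyes, rod markers were high in mouse 2 (gap over range 0.834), as were cone markers (0.717) and inner retina neuron markers (0.732). In control eyes, inner retina neuron markers were high in mouse 2 (0.728). Müller glia markers were low in the Nrf2 eye of mouse 1 (0.748).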

How the results depend on the processing

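Slco1c1 and Trhde kept their direction under all alternatives run, with log2 fold changes of -2.67 to -2.95 and -2.77 to -3.23 when a mouse was left out, and -2.78 and -2.72 without the mouse as a block. The number of all genes called was 1803 with DESeq2, 508 with rod markers as a covariate, 755 without the block (687 shared with the blocked fit), and 584 to 857 when a mouse was left out, lowest without mouse 2. Of the 6 genes listed by function, DESeq2 called 1, and 0 to 1 were called with a mouse left out. For other transporters the count was 5 with DESeq2, 1 with the rod covariate and 2 to 3 with a mouse left out. For carriers and enzymes it was 1 without the block, 1 without the filter on low counts, 0 with the rod covariate and 0 to 2 with a mouse left out. For receptor partners it was 0 with the rod covariate and 0 to 1 with a mouse left out, and 0 came without mouse 2 or 4. For TRH and TSH genes it was 0 without the block, 4 with DESeq2 and 1 to 2 with a mouse left out. Signs turned only for genes not called. With a mouse left out, Slc16a10 ranged from -0.064 (without mouse 5) to 0.50, Dio2 from -0.032 (without mouse 5, and -0.029 without mouse 4) to 0.79, and Dio3 from -0.18 (without mouse 5, and -0.025 without mouse 3) to 0.38, and Dio2 was -0.22 with the rod covariate. Dio2 could not be tested without mouse 2. Slco2b1 lost its call without mouse 1, 2, 3 or 4, Ugt1a6a without 2, 3 or 4, Sult1a1 without 1, 2, 3 or 4 or without the filter, Qpct without 1, 3 or 5, and Slc16a8 without 2 or 5 or without the block. With the rod covariate Slco1a4, Slco2b1, Ugt1a6a, Sult1a1 and Ncoa1 lost their calls at log2 fold changes of -1.22, 2.67, 1.21, -0.55 and -0.68, close to those without it. The cause was not tested.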

Other observations

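The tested neighbours of the 2 chosen genes on their chromosomes were looked at after the values were seen. Pde3a, a phosphodiesterase gene 16920 bases from Slco1c1, had 6.67 CPM in control and 3.78 CPM in Nrf2 eyes, a log2 fold change of -1.06 (SE 0.43) that did not pass the test (adjusted p = 0.179). Of the 3 nearest tested genes on each side of Trhde, Tmem19 had the smallest adjusted p (0.159), with a log2 fold change of 0.37 (SE 0.13).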
